A study of Homo sapiens with 16 samples.

Results

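The calcineurin, NFAT and RCAN genes are 10 genes of 1 calcium signaling pathway, and they were followed across 4 groups of the MDA-MB-231 line, breast carcinoma cells of human origin with a mesenchymal shape. They are the catalytic subunits PPP3CA and PPP3CB and the regulatory subunit PPP3R1 of the phosphatase calcineurin, the transcription factors NFATC1, NFATC2, NFATC3 and NFATC4, and the regulators of calcineurin RCAN1, RCAN2 and RCAN3. All 10 were found by symbol among the 19468 genes of the table. The set was chosen by its measured values in these same libraries, since RCAN2 was singled out for its large change, so that RCAN2 is described here without a test.

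Calcineurin is switched on when calcium and calmodulin bind it. It then removes phosphates from NFAT proteins, which move into the nucleus and drive transcription together with partners such as AP-1. RCAN proteins bind calcineurin and can inhibit it, and a promoter inside RCAN1 is itself switched on by calcineurin and NFAT, so that RCAN1 is widely read as a feedback gene of the pathway. In breast cancer cells, NFAT proteins have been tied to migration and invasion.

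RNA-seq was performed on 16 libraries of wildtype cells, 4 in each group. Ancestral cells on soft ECM and ancestral cells on stiff ECM were the unselected line on polyacrylamide gels that carried type I collagen, with a Young's modulus of 1 kPa for soft and 308 kPa for stiff gels. Selected cells had been kept for 75 days on gels of 1 stiffness, with 20000 cells moved at each passage, and were measured on the gel they were selected on. Soft-selected populations were thus never measured on the stiff gel nor the stiff-selected ones on the soft gel, so that between these groups the population and the gel differ together. The columns of the stiff groups are named for 3 kPa in the deposited table. A selected population is a mixture of surviving clones and not a single clone. The labels do not say whether the 4 libraries of a group came from separate cultures, so that a p-value here covers the spread among these libraries alone, which may be technical. The names of the ancestral and of the selected libraries begin with different prefixes, whose meaning the labels do not give, so that whatever the prefix marks and the difference between ancestral and selected cells cannot be told apart. Each comparison of soft with stiff ECM lies within 1 prefix.

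Values are FPKM, fragments scaled both by the length of the gene model and by the mapped fragments of the library, so that levels may be compared between genes per length. Reads recovered from them summed to 34284789 to 55473000 per library (median 44247673). The mesenchymal markers VIM and CD44 summed to 2392 to 2835 FPKM in every library, and ESR1 (at most 0.0777 FPKM) and PGR (at most 0.0180 FPKM) were near 0. ERBB2, listed as low for this line, lay at 36.3 to 43.1 FPKM, and EPCAM at 7.04 to 14.1 FPKM. Of 6 blood cell markers, 1 passed the filter on low values, and their sum was 0.523 to 1.95 FPKM in selected against 2.21 to 4.04 FPKM in ancestral libraries, nearly all of it CD14, with CD2 at 0 in all 16 libraries. Muscle markers summed to at most 0.876 FPKM and were higher in selected libraries (0.323 to 0.876) than in ancestral libraries (0.0791 to 0.179). Neuron markers summed to at most 2.09 FPKM and fibroblast markers to 3.65 to 6.71 FPKM. Their part in the differences between ancestral and selected cells was not tested.

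Reads were summed per gene, so that transcripts from different starts of RCAN1 or RCAN2 could not be told apart. The RefSeq annotation (GRCh38.p14) gives 3 start sites for RCAN2 and 6 for RCAN1. The 250 bases before each RCAN2 start and before the fourth RCAN1 start, an internal one, are printed because RCAN1 and RCAN2 differ in the values that follow. Capitals mark the NFAT core GGAAA, or TTTCC where it lies on the opposite strand, and the AP-1 type motif TGANTCA, searched on both strands.

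RCAN2 start 1 (chr6:46491971-46492220, minus strand): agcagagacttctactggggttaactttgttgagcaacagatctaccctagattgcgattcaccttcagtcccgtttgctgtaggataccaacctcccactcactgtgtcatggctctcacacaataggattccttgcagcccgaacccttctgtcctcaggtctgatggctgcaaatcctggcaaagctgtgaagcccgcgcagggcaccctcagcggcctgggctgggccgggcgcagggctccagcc
RCAN2 start 2 (chr6:46491450-46491699, minus strand): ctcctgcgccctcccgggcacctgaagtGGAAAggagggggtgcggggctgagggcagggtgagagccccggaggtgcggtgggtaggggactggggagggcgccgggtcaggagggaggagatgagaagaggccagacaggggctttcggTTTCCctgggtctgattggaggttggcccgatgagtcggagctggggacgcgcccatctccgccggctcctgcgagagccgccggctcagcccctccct
RCAN2 start 3 (chr6:46325652-46325901, minus strand): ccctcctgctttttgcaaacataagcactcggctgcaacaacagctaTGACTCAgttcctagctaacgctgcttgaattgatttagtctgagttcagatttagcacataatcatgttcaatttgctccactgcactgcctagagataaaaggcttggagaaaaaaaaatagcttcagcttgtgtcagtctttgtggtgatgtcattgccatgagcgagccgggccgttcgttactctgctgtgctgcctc
RCAN1 start 4 (chr21:34526823-34527072, minus strand): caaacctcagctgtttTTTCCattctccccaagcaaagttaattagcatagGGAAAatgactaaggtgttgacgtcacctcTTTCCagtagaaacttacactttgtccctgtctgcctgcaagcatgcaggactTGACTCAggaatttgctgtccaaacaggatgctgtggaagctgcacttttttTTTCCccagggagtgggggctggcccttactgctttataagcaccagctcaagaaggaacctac

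The window before RCAN1 start 4 held 4 matches to GGAAA and 1 to TGANTCA, and no other window of RCAN1, RCAN2 or RCAN3 held more than 2 matches to GGAAA. The 3 windows of RCAN2 held 0, 2 and 0 matches to GGAAA, and the window before start 3 held 1 match to TGANTCA. Of the 12 windows of the RCAN genes, 4 held GGAAA and 4 held TGANTCA, among them 1 and 2 of the 6 RCAN1 windows. Over all 34943 windows of this length, 55.7% held GGAAA at least once, 1.87% held it 4 or more times, and 6.59% held TGANTCA. The TEAD type motif GGAATG lay in 0 of the 12 windows of the RCAN genes, and in 11.9% of all windows. No match overlapped another in the printed windows, and a match to such short motifs is a description of the sequence only.

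RCAN2 was the gene of this family that stood far from the others. Its lowest level was 4.16 FPKM and its highest 85.4 FPKM, a 20.5-fold range over the 16 libraries, while for the other 8 genes above the filter the highest library was 1.21 to 2.10 times the lowest. In ancestral cells on stiff ECM, RCAN2 measured 9.30, 6.47, 4.16 and 7.10 FPKM in the 4 libraries. On soft ECM, ancestral cells measured 11.2, 12.9, 11.1 and 16.3 FPKM. All 4 soft libraries thus lay above all 4 stiff libraries before any selection.

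Selected cells lay higher on both gels. Stiff-selected cells on stiff ECM measured 35.2, 30.5, 23.7 and 39.5 FPKM of RCAN2, and soft-selected cells on soft ECM measured 85.4, 72.8, 76.0 and 52.4 FPKM. No group overlapped another, and the order of the group levels from low to high was ancestral on stiff (6.76 ± 2.12 FPKM, mean ± SD, n = 4), ancestral on soft (12.9 ± 2.42), selected on stiff (32.2 ± 6.74) and selected on soft (71.7 ± 13.9). Between 156 and 2769 reads in a library lay behind these values. In a bulk sample, a change in the share of cells that hold a transcript and a change in the RNA per cell cannot be told apart.

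**Figure D1:**
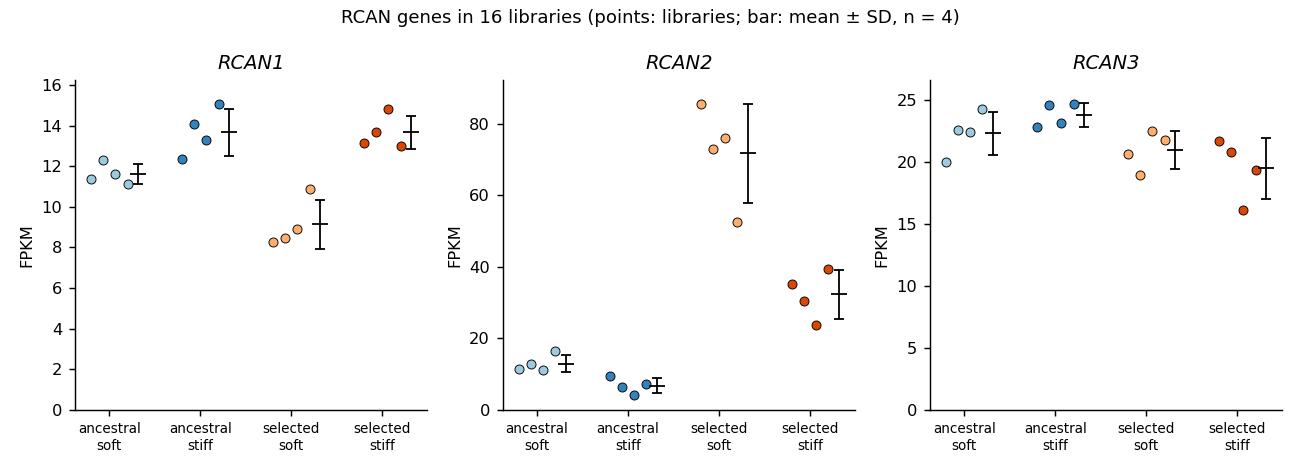
FPKM of RCAN1, RCAN2 and RCAN3 (vertical axes, starting at 0) in the 4 groups (horizontal axes), with 1 point per library and a bar for the mean and SD of 4 libraries. The mean of RCAN2 ran from 6.76 FPKM in ancestral cells on stiff ECM to 71.7 FPKM in soft-selected cells on soft ECM, while RCAN1 was lowest in soft-selected cells (9.13 FPKM) and RCAN3 stayed between 16.1 and 24.6 FPKM.

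On the level scale, the mean of RCAN2 was 5.57 times as high in soft-selected as in ancestral cells on soft ECM, and 4.77 times as high in stiff-selected as in ancestral cells on stiff ECM. On the log2(FPKM + 1) scale, on which all differences below are given, these were differences of 2.38 and 2.12, the sixth and the fifth highest of the 12604 genes tested (ranks 6 and 5). Between soft-selected and stiff-selected cells the difference was 1.13 (rank 20), and between the ancestral groups, soft minus stiff, it was 0.87 (rank 72). The effect of selection on soft minus that on stiff ECM was 0.27. The values of RCAN2 chose the set, so that these ranks and differences describe the choice and carry no p-value.

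The 8 other members above the filter moved by less than a doubling in every comparison. Their count of called genes is read against the share of all genes called. Calls needed a p under 0.01 in limma after Benjamini-Hochberg adjustment, fitted over all 12604 genes that passed the filter, and NFATC4 did not pass. On soft ECM, 1 of the 8 tested members was higher and 2 were lower in soft-selected than in ancestral cells, where 21.5% of all genes were higher and 15.4% lower. On stiff ECM, 1 was higher and 3 were lower in stiff-selected than in ancestral cells, against 18.4% and 10.8% of all genes. Between soft-selected and stiff-selected cells 0 were higher and 1 was lower, against 3.85% and 2.59%.

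Between the ancestral groups, limma called 0 of the 8 members higher and 0 lower, against 7.54% and 3.87% of all genes, and 2 members had an unadjusted p under 0.05. With limma's voom on the recovered reads scaled by the median of ratios, 1 member was called here. No member was called when the effect of selection on stiff ECM was subtracted from that on soft ECM, where limma called 0% of all genes and 1 of 8 members had an unadjusted p under 0.05. With 8 members a single gene moves such a share widely, so that nothing particular to the family is read from these counts. The groups did not overlap for 5 of the 8 members on soft ECM (45.6% of all genes), for 4 on stiff ECM (36.8%), for 2 between the selected groups (17%) and for 3 between the ancestral groups (31.4%).

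The split of all called genes into higher and lower depended on the scaling. On soft ECM, 2708 genes were higher and 1944 lower in soft-selected cells, and 2160 and 2469 with voom and the median of ratios. On stiff ECM the numbers were 2313 higher and 1356 lower in stiff-selected cells, and 1716 and 2052 with that scaling. Between the selected groups they were 485 and 326, and 426 and 436 with voom and the median of ratios, 399 and 414 with median scaling and 395 and 448 with quantile normalization. Between the ancestral groups they were 950 and 488, and 915 and 969 with the median of ratios and 589 and 599 with quantile normalization. With TPM the excess of higher genes was larger, with 3344 higher and 1612 lower on soft ECM and 2865 and 1148 on stiff ECM. The median difference over all genes lay within 0.05 of 0 in each comparison on the FPKM scale. With TPM it was 0.0857 on soft and 0.0879 on stiff ECM for selected against ancestral cells.

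**Figure D2:**
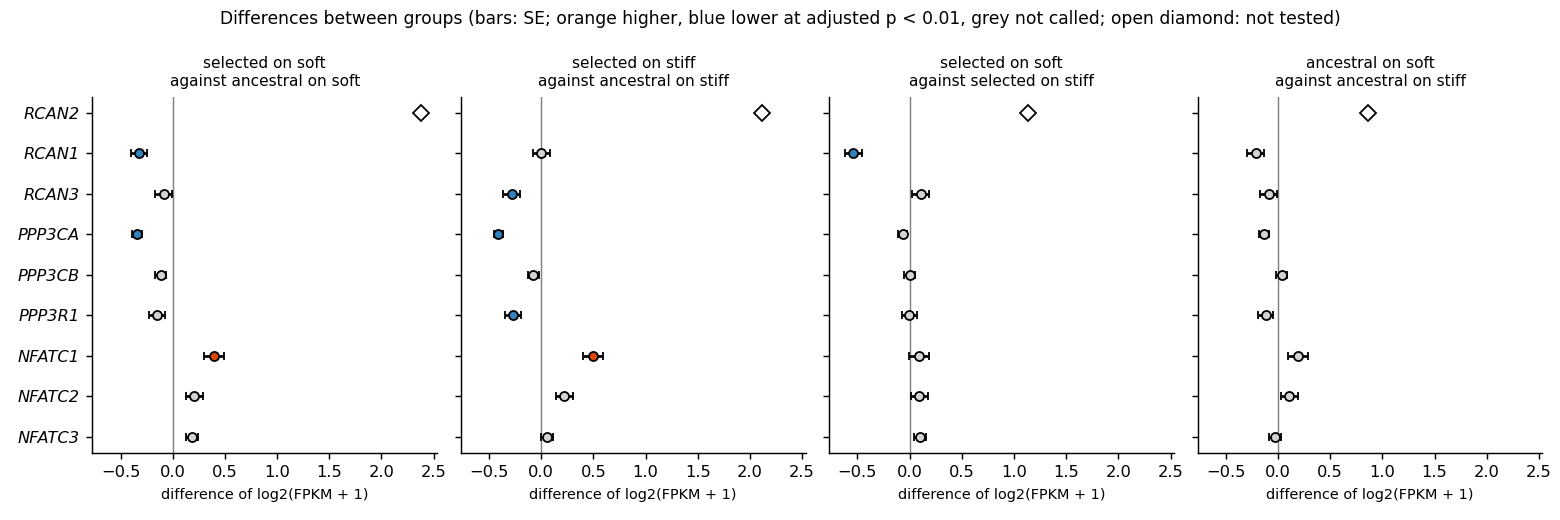
Differences in log2(FPKM + 1) (horizontal axes, first group minus second) of 9 genes of the family in 4 comparisons, with bars for the SE. Orange points were called higher and blue points lower at an adjusted p under 0.01, grey points were not called, and the open diamonds of RCAN2, from 0.87 to 2.38, were not tested.

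RCAN1, whose internal promoter answers to calcineurin, differed the other way from RCAN2 between soft-selected and stiff-selected cells. Its level was 8.26, 8.48, 8.90 and 10.9 FPKM in soft-selected cells on soft ECM and 13.2, 13.7, 14.8 and 13.0 FPKM in stiff-selected cells on stiff ECM. In ancestral cells it was 11.4, 12.3, 11.6 and 11.1 FPKM on soft ECM and 12.3, 14.1, 13.3 and 15.1 FPKM on stiff ECM. Soft-selected cells thus had the lowest level, below every library of the other groups.

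Soft-selected cells held less RCAN1 than stiff-selected cells (difference -0.54, SE 0.08, adjusted p = 0.00046), and this call was kept in all 28 alternatives. It was also lower in soft-selected than in ancestral cells on soft ECM (-0.32, SE 0.08, adjusted p = 0.0029). That call was lost without ancestral on soft replicate 2 (adjusted p = 0.012) and without selected on soft replicate 1 (adjusted p = 0.011), with a range from 0.00027 to 0.012 over the alternatives. Stiff-selected and ancestral cells on stiff ECM had almost the same mean, 13.7 FPKM in both (difference -0.00, SE 0.08, adjusted p = 1). In ancestral cells, soft and stiff ECM differed by -0.22 (SE 0.08, adjusted p = 0.056), which was called with array weights alone of the 28 alternatives (adjusted p = 0.00019, with a range from 0.00019 to 0.13). The effect of selection on soft minus that on stiff ECM was -0.32 (SE 0.11), with an unadjusted p of 0.0111 and an adjusted p of 0.23, so that a difference between the effects did not pass the threshold.

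RCAN3, the last regulator of calcineurin, varied least of the RCAN genes over the libraries, the highest being 1.53 times the lowest. Its level was 22.3 ± 1.75 FPKM in ancestral cells on soft ECM, 23.8 ± 0.971 in ancestral cells on stiff ECM, 21.0 ± 1.54 in soft-selected cells and 19.5 ± 2.46 in stiff-selected cells (mean ± SD, n = 4). On stiff ECM the selected libraries measured 21.7, 20.8, 16.1 and 19.3 FPKM and the ancestral libraries 22.8, 24.6, 23.1 and 24.6 FPKM, without overlap. The difference of -0.28 (SE 0.08, adjusted p = 0.0099) lay at the threshold. It was called in 8 of 28 alternatives (adjusted p 0.00031 to 0.043), and among the 16 fits that left out a library only those without ancestral on soft replicate 1, selected on soft replicate 2 or selected on stiff replicate 1 kept the call. Without selected on stiff replicate 3, the lowest library, the difference was -0.20.

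Because RCAN2 differed so much, the makeup of the RCAN transcripts shifted with it. RCAN2 made up 15.2 ± 4.40% of the summed FPKM of the 3 RCAN genes in ancestral cells on stiff ECM, 27.4 ± 2.98% in ancestral cells on soft ECM, 48.9 ± 4.91% in stiff-selected cells and 69.9 ± 5.76% in soft-selected cells (mean ± SD, n = 4). RCAN3 was the most abundant of the 3 in all 8 ancestral libraries, and RCAN2 in all 8 selected libraries. The summed level was 44.2 ± 2.64 and 46.8 ± 3.87 FPKM in ancestral cells on stiff and soft ECM, 65.4 ± 7.71 FPKM in stiff-selected cells and 102 ± 12.5 FPKM in soft-selected cells. These sums contain RCAN2 and are given as a description.

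**Figure D3:**
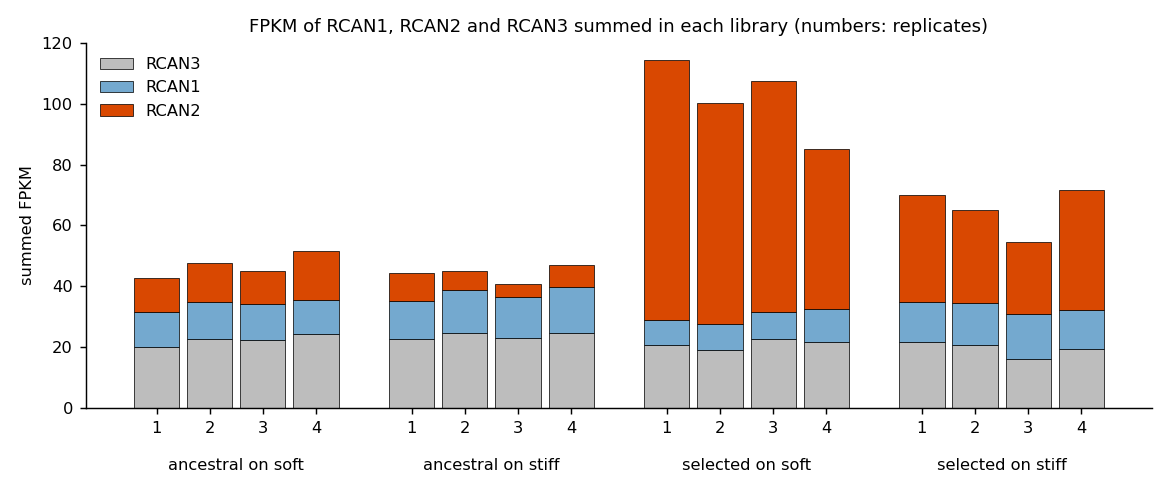
Summed FPKM of RCAN3 (grey), RCAN1 (blue) and RCAN2 (orange) in each of the 16 libraries (vertical axis from 0, libraries by replicate number within their group). The sum ran from 40.6 to 51.7 FPKM in the 8 ancestral libraries and from 54.7 to 114 FPKM in the 8 selected libraries, and the RCAN2 part reached 74.7% in the first soft-selected library.

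PPP3CA, the alpha catalytic subunit of calcineurin, was the tested member with the smallest p in both comparisons of selected with ancestral cells. It measured 70.8, 73.9, 71.0 and 73.4 FPKM in ancestral cells on soft ECM and 53.9, 60.4, 55.7 and 57.7 FPKM in soft-selected cells. On stiff ECM it measured 80.5, 77.2, 80.8 and 79.6 FPKM in ancestral cells and 59.0, 59.2, 58.2 and 62.0 FPKM in stiff-selected cells. Every selected library lay below every ancestral library.

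The difference of PPP3CA was -0.34 on soft ECM (SE 0.04, adjusted p = 9.3e-06) and -0.41 on stiff ECM (SE 0.04, adjusted p = 2.4e-06), and both calls were kept in all 28 alternatives. Soft-selected cells had 0.787 and stiff-selected cells 0.749 of the ancestral mean on their gel. In ancestral cells, soft ECM was below stiff ECM by a difference of -0.14 without overlap (SE 0.04, adjusted p = 0.035). That difference was called with array weights (adjusted p = 0.0035) and with voom and the median of ratios (adjusted p = 0.0092), the adjusted p ranging from 0.0035 to 0.089 over the alternatives. The selected groups differed by -0.07 (SE 0.04, adjusted p = 0.32).

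PPP3CB, the beta catalytic subunit, was not called in any comparison. Its group means were 52.6 ± 2.57 and 51.3 ± 1.83 FPKM in ancestral cells on soft and stiff ECM, and 48.6 ± 1.28 and 48.6 ± 3.02 FPKM in soft-selected and stiff-selected cells. Ancestral cells thus held 1.38 ± 0.0424 times as much PPP3CA as PPP3CB per length on soft ECM and 1.55 ± 0.0653 times on stiff ECM, and soft-selected and stiff-selected cells held 1.17 ± 0.0424 and 1.23 ± 0.0607 times as much. The share of PPP3CA in the summed FPKM of the catalytic genes PPP3CA, PPP3CB and PPP3CC was 53.1 to 56.8% in ancestral libraries. It was 46.9 to 50.1% in selected libraries, with no overlap. The summed FPKM of the RCAN genes was also divided by that of PPP3CA, PPP3CB and PPP3CC. This ratio was 0.346 ± 0.0201 and 0.312 ± 0.0192 in ancestral cells on soft and stiff ECM. It was 0.853 ± 0.123 and 0.536 ± 0.0650 in soft-selected and stiff-selected cells. The ratio contains RCAN2, whose values chose the set, and is given as a description.

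PPP3R1, the regulatory subunit that binds calcium, measured 91.2, 92.5, 99.3 and 83.3 FPKM in ancestral and 82.0, 74.4, 77.6 and 69.4 FPKM in stiff-selected cells on stiff ECM. The difference was -0.27 (SE 0.07, adjusted p = 0.0074). It was called in 15 of 28 alternatives (adjusted p 8.6e-06 to 0.029), and in 7 of the 16 fits that left out a library, which were those without any 1 of the soft-selected libraries, without ancestral on soft replicate 1, without ancestral on stiff replicate 4 or without selected on stiff replicate 1. On soft ECM the groups overlapped, with 84.0 ± 3.08 FPKM in ancestral and 75.9 ± 8.91 FPKM in soft-selected cells (difference -0.15, SE 0.07, adjusted p = 0.096). Soft-selected replicate 2 stood at 88.3 FPKM, and without it the difference was -0.23 (adjusted p = 0.0089).

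**Figure D4:**
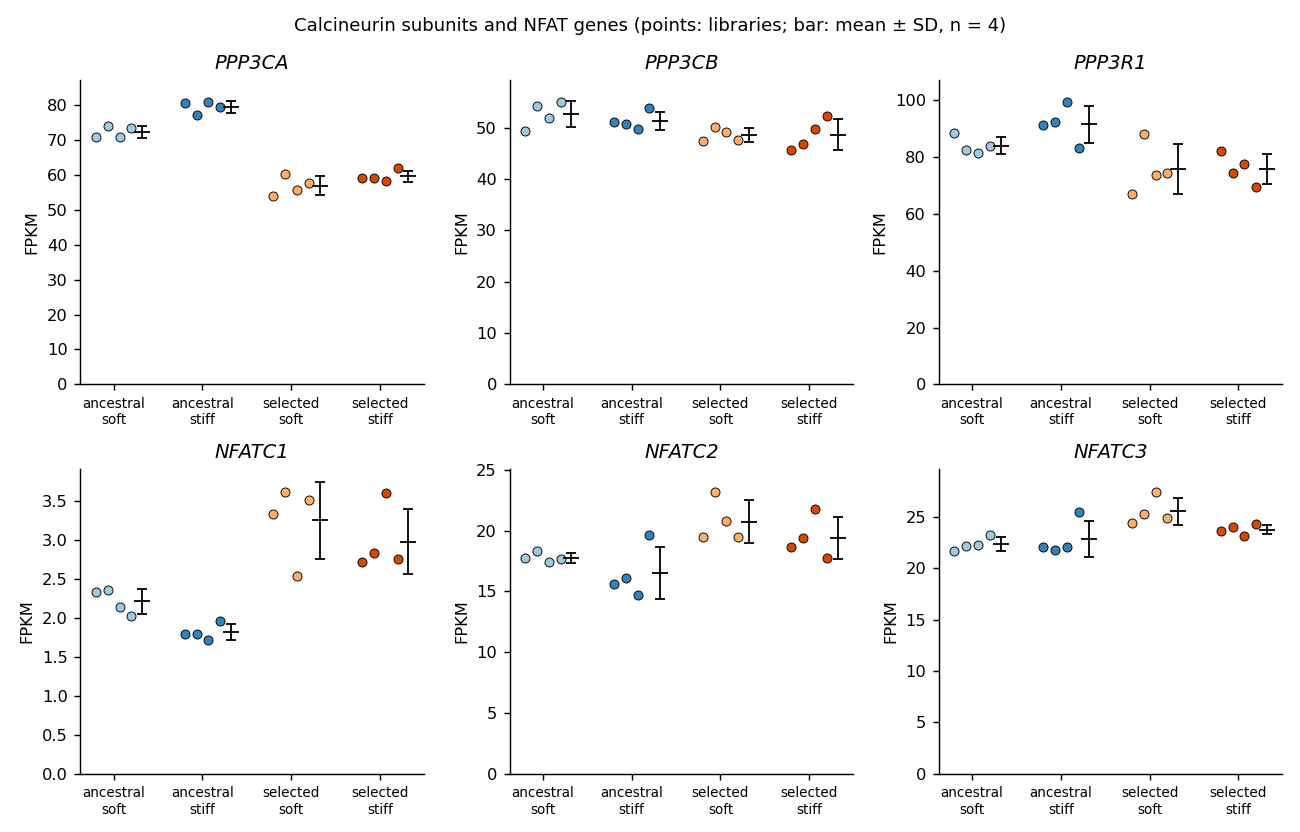
FPKM of the calcineurin subunits PPP3CA, PPP3CB and PPP3R1 and of NFATC1, NFATC2 and NFATC3 (vertical axes, starting at 0) in the 4 groups, with 1 point per library and a bar for the mean and SD of 4 libraries. PPP3CA lay at 70.8 to 80.8 FPKM in ancestral and 53.9 to 62.0 FPKM in selected libraries, and NFATC1 at 1.72 to 2.37 FPKM in ancestral and 2.54 to 3.62 FPKM in selected libraries.

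NFATC1, the NFAT protein best known from T cells, osteoclasts and heart valves, was the only tested member called higher in selected cells. Its level was low, at 2.33, 2.37, 2.14 and 2.03 FPKM in ancestral and 3.33, 3.62, 2.54 and 3.52 FPKM in soft-selected cells on soft ECM. On stiff ECM it was 1.79, 1.79, 1.72 and 1.97 FPKM in ancestral and 2.72, 2.83, 3.61 and 2.76 FPKM in stiff-selected cells. All 8 selected libraries lay above all 8 ancestral libraries.

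The difference of NFATC1 was 0.40 on soft ECM (SE 0.10, adjusted p = 0.0024) and 0.49 on stiff ECM (SE 0.10, adjusted p = 0.00055). Both were called in 27 of 28 alternatives. With quantile normalization they were 0.26 (adjusted p = 0.036) and 0.31 (adjusted p = 0.019) and not called, at the upper end of the ranges from 0.00044 to 0.036 and from 6.9e-06 to 0.019. Because 1 is added to a low FPKM, the difference understates the change in level, and the means differed by 1.47 and 1.64 times. Soft and stiff ECM differed by 0.19 in ancestral cells (SE 0.10, adjusted p = 0.15). Soft-selected and stiff-selected cells differed by 0.09 (SE 0.10, adjusted p = 0.52), where the sign turned under quantile normalization.

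NFATC2 and NFATC3, the more abundant of the NFAT genes among the members, were not called in any comparison. NFATC2 measured 17.8 ± 0.410 and 16.5 ± 2.15 FPKM in ancestral cells on soft and stiff ECM and 20.7 ± 1.76 and 19.4 ± 1.73 FPKM in soft-selected and stiff-selected cells (differences from ancestral cells 0.21 and 0.22, SE 0.08 each, adjusted p = 0.042 and 0.035). Without ancestral on stiff replicate 4, the difference of NFATC2 on stiff ECM was 0.31 and was called (adjusted p = 0.003, with a range from 0.00021 to 0.13 over the alternatives). NFATC3 measured 22.3 ± 0.665 and 22.8 ± 1.73 FPKM in ancestral and 25.5 ± 1.33 and 23.8 ± 0.466 FPKM in selected cells on soft and stiff ECM.

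On soft ECM the groups of NFATC3 did not overlap, with a difference of 0.18 (SE 0.06, adjusted p = 0.012). It was called in 5 of 28 alternatives, among them the fit without ancestral on stiff replicate 4 (adjusted p = 0.0046), and the adjusted p ranged from 0.0015 to 0.065. On stiff ECM the difference was 0.06 (SE 0.06, adjusted p = 0.44). NFATC3 made up 52.8 ± 1.18% and 55.6 ± 1.38% of the summed FPKM of NFATC1 to NFATC4 in ancestral cells on soft and stiff ECM, and 51.6 ± 2.29% and 51.6 ± 2.75% in soft-selected and stiff-selected cells.

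NFATC4 was not detected at a usable level. It was at 0 in 13 of 16 libraries and had 4 reads in all, 1 in soft-selected and 3 in stiff-selected cells. An exact permutation test over 4 against 4 libraries, two-sided, gave p = 0.429 for stiff-selected against ancestral cells and for the selected groups, and p = 1 for the other comparisons, where 0.0286 is the smallest p that this design allows. A difference in NFATC4 was not detectable at this depth.

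The other genes of the pathway come from 7 lists of 92 genes, chosen with earlier results of these data known, of which 62 passed the filter and 30 did not. In soft-selected against ancestral cells on soft ECM, 14 were higher and 12 lower (21.5% and 15.4% of all genes), and in stiff-selected against ancestral cells on stiff ECM, 15 were higher and 7 lower (18.4% and 10.8% of all genes). Their median differences were 0.08 and 0.07, where those over all genes were 0.04 and 0.05. Between the selected groups 5 were higher in soft-selected cells and 0 lower (3.85% and 2.59% of all genes), and between the ancestral groups 8 were higher on soft ECM and 1 lower (7.54% and 3.87% of all genes). The counts of single lists that follow are to be read against the same shares, and nothing particular to a list is drawn from them. Where no other contrast is named, higher or lower on a gel means selected against ancestral cells on that gel. When the effect of selection on stiff ECM was subtracted from that on soft ECM, limma called 0 of 62, and 7 had an unadjusted p under 0.05.

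The remaining subunits and NFAT5 were measured beside the members. PPP3CC, the gamma catalytic subunit, was higher in soft-selected than in ancestral cells on soft ECM (14.1 ± 0.925 against 10.3 ± 0.573 FPKM, difference 0.41, adjusted p = 9.8e-05) and in stiff-selected than in ancestral cells on stiff ECM (13.9 ± 0.975 against 11.0 ± 0.675 FPKM, difference 0.31, adjusted p = 0.0015). The catalytic genes therefore did not move together, since PPP3CA was lower in both comparisons. NFAT5, which answers to osmotic stress and lacks the calcineurin docking of the other NFAT proteins, was higher in soft-selected cells on soft ECM (58.8 ± 5.12 against 45.1 ± 3.56 FPKM, difference 0.38, adjusted p = 0.00061) and was not called on stiff ECM (difference 0.26, adjusted p = 0.011). PPP3R2, a testis form of the regulatory subunit, lay at most at a mean of 0.0418 FPKM and was not tested.

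Calmodulin carries the calcium signal to calcineurin. Of its genes, CALM2 was lower in soft-selected than in ancestral cells on soft ECM (416 ± 33.1 against 625 ± 36.9 FPKM, difference -0.59, adjusted p = 0.0002) and in stiff-selected than in ancestral cells on stiff ECM (436 ± 24.4 against 729 ± 134 FPKM, difference -0.72, adjusted p = 4.1e-05). CALM3 was not called, with means of 679 to 770 FPKM over the groups.

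Of 8 tested inhibitors, anchors and immunophilins, 1 was higher and 3 lower on soft ECM (21.5% and 15.4% of all genes), and 2 were higher and 1 lower on stiff ECM (18.4% and 10.8%). FKBP1A, the protein through which the drug FK506 inhibits calcineurin, was lower in soft-selected (593 ± 60.5 FPKM) than in ancestral cells on soft ECM (937 ± 12.1 FPKM), with a difference of -0.67 (adjusted p = 4.8e-07), and by -0.43 on stiff ECM (adjusted p = 6.8e-05). PPIA, through which cyclosporin acts, was lower on soft ECM (difference -0.27, adjusted p = 0.0078), as was HOMER3, a scaffold that competes with calcineurin for NFAT (difference -0.32, adjusted p = 0.00075). AKAP5, which anchors calcineurin at membranes, was higher on both gels (differences 0.39 and 0.53, adjusted p = 0.0045 and 0.00062), and CABIN1, an inhibitor of calcineurin, was higher on stiff ECM (difference 0.22, adjusted p = 0.0057). In ancestral cells FKBP1A was higher on soft than on stiff ECM (difference 0.29, adjusted p = 0.0055).

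Genes of calcium entry and release went both ways, with 3 of 16 tested genes higher and 5 lower on soft ECM (21.5% and 15.4% of all genes) and 4 higher and 4 lower on stiff ECM (18.4% and 10.8%). STIM1, the calcium sensor of the endoplasmic reticulum, was lower in selected cells on both gels (44.0 ± 2.39 against 63.9 ± 0.702 FPKM on soft ECM, difference -0.53, adjusted p = 1.4e-06, and difference -0.52 on stiff ECM, adjusted p = 3.5e-06). Of the IP3 receptor genes, ITPR1 was higher (differences 0.66 and 0.80, adjusted p = 6e-06 and 1.3e-06). ITPR3, far more abundant than ITPR1, was lower (differences -0.39 and -0.35, adjusted p = 3.3e-06 and 1.8e-05). The remaining IP3 receptor gene of the list was not called on either gel (differences 0.18 and 0.17, adjusted p = 0.039 and 0.069). The plasma membrane calcium pump ATP2B4 was lower on both gels (differences -0.79 and -0.60, adjusted p = 9.1e-07 and 3.1e-05), and PLCG2, a phospholipase that makes IP3, was higher on both (differences 0.64 and 0.70, adjusted p = 6.3e-06 and 4.3e-06). In ancestral cells the channel subunit ORAI3 (difference 0.59, adjusted p = 0.0003) and SARAF, which slows calcium entry (difference 0.28, adjusted p = 0.0086), were higher and the pump ATP2B1 was lower (difference -0.24, adjusted p = 0.0018) on soft than on stiff ECM.

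Among 13 tested kinases that phosphorylate NFAT or RCAN proteins, 3 were higher and 0 lower on soft ECM (21.5% and 15.4% of all genes) and 2 were higher and 0 lower on stiff ECM (18.4% and 10.8%). The JNK gene MAPK8 was higher by 0.28 on each gel (adjusted p = 0.001 on soft and 0.0014 on stiff ECM). DYRK3 was higher as well (differences 0.24 and 0.33, adjusted p = 0.0066 and 0.00095), and GSK3B, which sends NFAT back out of the nucleus, was higher on soft ECM (difference 0.22, adjusted p = 0.0047). DYRK1B differed between the gels, being higher on soft than on stiff ECM in selected cells (19.6 ± 1.26 against 14.4 ± 1.25 FPKM, difference 0.42, adjusted p = 0.0011) and in ancestral cells (18.5 ± 0.577 against 13.7 ± 1.20 FPKM, difference 0.41, adjusted p = 0.00092).

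Of 10 tested substrates and nuclear partners, 1 was higher and 2 lower on soft ECM (21.5% and 15.4% of all genes) and 1 was higher and 0 lower on stiff ECM (18.4% and 10.8%). MEF2D, a transcription factor that calcineurin activates, was higher on both gels (differences 0.43 and 0.48, adjusted p = 0.00017 and 8.8e-05), and the apoptosis gene BAD was lower on soft ECM (difference -0.44, adjusted p = 0.0003). TFEB, the lysosomal transcription factor that calcineurin dephosphorylates, was higher on soft than on stiff ECM in ancestral cells (17.6 ± 0.768 against 9.91 ± 0.612 FPKM, difference 0.77, adjusted p = 0.0002) and between the selected groups (13.4 ± 1.86 against 8.97 ± 1.27 FPKM, difference 0.53, adjusted p = 0.0015), and lower in soft-selected than in ancestral cells on soft ECM (difference -0.37, adjusted p = 0.003). MEF2A was higher in the soft-selected of the selected groups (difference 0.35, adjusted p = 0.0088). MEF2C was higher on soft ECM in ancestral cells (4.15 ± 0.513 against 1.84 ± 0.685 FPKM, difference 0.88, adjusted p = 0.0013).

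Of 26 genes listed as NFAT targets, 10 passed the filter, and 3 were higher and 1 lower on soft ECM (21.5% and 15.4% of all genes) and 4 were higher and 1 lower on stiff ECM (18.4% and 10.8%). The nuclear receptor NR4A1 was higher in soft-selected (26.7 ± 5.27 FPKM) than in ancestral cells on soft ECM (15.5 ± 5.23 FPKM, difference 0.78, adjusted p = 0.0034) and in stiff-selected (17.8 ± 3.77 FPKM) than in ancestral cells on stiff ECM (4.92 ± 0.958 FPKM, difference 1.66, adjusted p = 6e-06). NR4A3, of the same receptor family, was higher on both gels (differences 1.12 and 0.70, adjusted p = 8.5e-07 and 0.00016), as was the protease gene CTSK, an NFATC1 target in osteoclasts (differences 0.49 and 0.42, adjusted p = 0.0004 and 0.0018). The cytokine gene CSF2, a T cell target of NFAT, was lower on both gels (differences -1.38 and -1.26, adjusted p = 1.3e-06 and 6.8e-06).

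Some listed NFAT targets also differed between soft and stiff groups, of which the selected ones differ in population as well as gel. EGR3 was higher on soft than on stiff ECM in ancestral cells (difference 0.92, adjusted p = 0.0014) and between the selected groups (difference 0.76, adjusted p = 0.0057), NR4A1 in ancestral cells (difference 1.44, adjusted p = 0.0003) and NR4A3 between the selected groups (difference 0.78, adjusted p = 0.00052). RCAN1, which is an NFAT target too, was lower on soft than on stiff ECM between the selected groups.

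**Figure D5:**
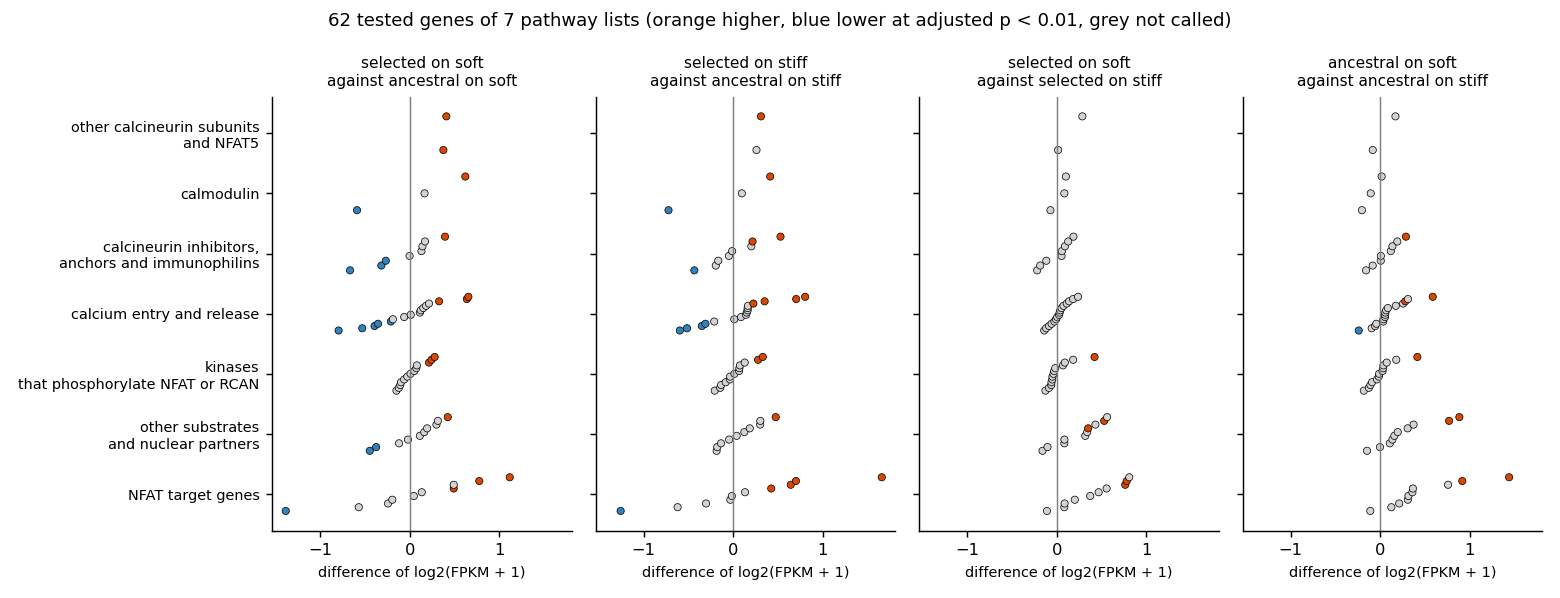
Differences in log2(FPKM + 1) (horizontal axes, first group minus second) of the 62 tested genes of 7 pathway lists (vertical axis) in 4 comparisons, with 1 point per gene. Orange points were called higher and blue points lower at an adjusted p under 0.01, and grey points were not called. The points of both selected-against-ancestral comparisons lie on both sides of 0, with 14 higher and 12 lower on soft ECM and 15 higher and 7 lower on stiff ECM.

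The genes whose pattern over the 16 libraries was most like that of RCAN2 were found by Pearson's r of log2(FPKM + 1), given without a p because the 16 libraries fall into 4 groups and are not independent points. The highest were C11orf91 (r = 0.97), the sorting nexin gene SNX32 (r = 0.97), KIAA1324L (r = 0.96), TM9SF1 (r = 0.96), the semaphorin and VEGF co-receptor NRP2 (r = 0.96) and the collagen and elastin cross-linking enzyme LOXL1 (r = 0.96). NRP2 measured 42.0 ± 3.29 and 59.3 ± 0.663 FPKM in ancestral cells on stiff and soft ECM and 84.3 ± 10.4 and 146 ± 18.0 FPKM in stiff-selected and soft-selected cells, the order of RCAN2. LOXL1 measured 6.81 ± 0.469, 10.4 ± 0.472, 15.9 ± 0.760 and 22.7 ± 2.75 FPKM in the same order. The lowest were the DNA polymerase alpha gene POLA1 (r = -0.97), PRPS2 (r = -0.97), the RhoGAP gene ARHGAP42 (r = -0.96) and the translation factor gene EIF2S3 (r = -0.96).

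RCAN2 lies on chromosome 6, where the 5 nearest genes of the table on each side were read from the order of the RefSeq annotation. Of these 10 neighbours, 6 passed the filter and ENPP5, TDRD6, PLA2G7 and ANKRD66 did not. RUNX2, an osteoblast transcription factor, was lower in soft-selected than in ancestral cells on soft ECM (31.0 ± 3.08 against 42.4 ± 1.53 FPKM, difference -0.45, SE 0.11, adjusted p = 0.002) and in stiff-selected than in ancestral cells on stiff ECM (difference -0.68, SE 0.11, adjusted p = 7.5e-05). CLIC5 was higher in selected cells (differences 0.71 and 1.07, SE 0.12 each, adjusted p = 0.00013 and 3.8e-06) and ran against RCAN2 between the selected groups, being lower on soft ECM (difference -0.57, SE 0.12, adjusted p = 0.0049). ENPP4 was higher in soft-selected than in ancestral cells on soft ECM (difference 0.52, SE 0.14, adjusted p = 0.0058), and SUPT3H, CYP39A1 and SLC25A27 were not called in any of the 4 comparisons. Of the 6 tested neighbours, 2 were higher and 1 lower in soft-selected than in ancestral cells on soft ECM (21.5% and 15.4% of all genes). In stiff-selected against ancestral cells on stiff ECM, 1 was higher and 1 lower (18.4% and 10.8%). RCAN2 differed by more than each neighbour in both comparisons, which describes its choice for a large change and is not a result about this region.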

How the data were processed

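Total RNA of 16 MDA-MB-231 libraries, 4 in each of 4 groups, was sequenced as read pairs after ribosomal depletion. The authors deposited FPKM values for 19468 genes as 1 table, with 0 sample columns unused here. STAR for alignment and hg19 as the build appear, without versions, in the submitters' processing notes, and which tool and annotation counted the genes is not given in the sources used here. Groups and replicates were taken from the labels, to which the column names were matched.

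The read numbers behind the FPKM values came out whole for 100% of genes (within 0.001 of a read) and summed to 34284789 to 55473000 per library, which sets the counting precision.

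The 10 members, the pathway lists and the tests were chosen with earlier results of these data known. Tests used limma 3.58.1 (R 4.3.3) with a trended prior, on log2 of FPKM plus a pseudocount of 1. The 12604 genes that reached an FPKM of 1 in 4 or more libraries were fitted, with 4 group means over all 16 libraries. P-values were adjusted by Benjamini-Hochberg over all of these genes, with calls under 0.01. RCAN2 was not tested. NFATC4, below the filter, was examined by exact permutation. Tables and plots used Python 3.11.15, numpy 2.4.6 and pandas 2.3.3. The steps were tested on simulated data.

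The genes named are the 10 members, up to 4 called genes of each list and comparison with the smallest p, every gene of a list of at most 3 genes, the 6 genes most and the 4 least correlated with RCAN2, and the 5 nearest genes on each side of it. A listed gene that this rule names is not reported here. Markers of blood cells, fibroblasts, muscle and neurons were read as well. Promoter windows, gene order and chromosomes come from RefSeq on GRCh38.p14, another build than the authors', from which no coordinates were carried over to the values. The alternatives changed the pseudocount (to 0.1), the filter (none, or on the mean), the scaling (TPM, medians, quantiles), the fit (pairs of groups alone, a prior without trend, array weights, a replicate block, voom on recovered reads), the threshold (0.05, or a 2-fold change) or left out each library. Voom with the median of ratios was chosen after seeing the data.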

Additional observations from a re-analysis of the deposited data

Results flagged for a closer look

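In 2 of 36 groups of 4 libraries, 1 library of a member stood far from the other 3, where chance alone would give about 1 in 20 groups. NFATC1 measured 3.61 FPKM in selected on stiff replicate 3, against 2.72 to 2.83 FPKM in the other 3 libraries of that group, and the gap was 0.871 of the group's range, past Dixon's 95% critical value. NFATC3 measured 25.4 FPKM in ancestral on stiff replicate 4, against 21.8 to 22.1 FPKM in the other 3 libraries, with a gap of 0.922 of the range. Without ancestral on stiff replicate 4, the difference of NFATC3 between the ancestral groups, soft minus stiff, turned from -0.03 to 0.02, and neither value was called.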

How the results depend on the processing

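Under other settings, 1031 values of the 8 tested members kept their direction and side of the threshold, 36 were no longer called, 13 became called and 32 turned sign, all of the latter in values that were not called. No value of RCAN2 turned sign, with differences from 2.29 to 2.52 on soft and 1.94 to 2.29 on stiff ECM over the settings. The cause of the changes was not tested. The replicate numbers are shared between groups without a stated origin, and the deviations of same-numbered libraries from their group means correlated at -0.186 to 0.306 across genes (7 of 24 pairs over 0.1), the own number being the best match in 11 of 48 cases. With the replicate number as a block (replicate block), 3 members were called on soft and 3 on stiff ECM, and 26 and 22 pathway genes in these comparisons, 7 between the selected and 8 between the ancestral groups.

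For soft-selected against ancestral cells the 3 members called became 5 at an adjusted p under 0.05 and 0 at a fold change of at least 2 (2 to 4 with a library left out), and the 26 pathway genes became 2 at that fold change. For stiff-selected against ancestral cells the 4 members became 2 with no filter, TPM, quantile normalization or no trend, 0 at the fold change, and 2 to 4 with a library left out, and the 22 pathway genes became 34 with array weights and 2 at the fold change. Between the selected groups the 1 member became 0 at the fold change, and the 5 pathway genes became 3 with no filter or quantile normalization, 1 with only the groups compared, 12 with array weights, 15 at an adjusted p under 0.05, 0 at the fold change and 3 to 7 with a library left out, 3 without selected on soft replicate 1 or 3 or selected on stiff replicate 1 or 3. Between the ancestral groups the 0 members became 4 with array weights and 1 with the median of ratios or at an adjusted p under 0.05, and the 9 pathway genes became 31 with array weights, 18 at an adjusted p under 0.05 and 1 at the fold change. With the effect on stiff ECM subtracted from that on soft ECM, 1 pathway gene was called with array weights against 0. Over all genes this comparison gave 0 calls, 2 with quantile normalization and 98 higher and 255 lower with array weights. Depth limits NFATC4 alone among the members, with 4 reads in all.

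Values that turned sign were small, and none was called. For stiff-selected against ancestral cells, RCAN1 was 0.034 with TPM (-0.046 to 0.044 with a library left out) and NFATC3 -0.013 with the median of ratios. Between the selected groups, NFATC1 was -0.034 with quantile normalization, PPP3CB -0.021 with median scaling, -0.002 with quantile normalization and -0.023 with the median of ratios (-0.029 to 0.036 with a library left out), and PPP3R1 0.008 with TPM and 0.007 with quantile normalization (-0.078 to 0.052). Between the ancestral groups, NFATC3 was 0.026 with array weights (-0.049 to 0.022 with a library left out) and PPP3CB -0.007 with the median of ratios. With the effect on stiff subtracted from that on soft ECM, NFATC2 was 0.018 with quantile normalization and 0.003 with the median of ratios (-0.097 to 0.039 with a library left out), and PPP3CB ran from -0.065 to 0.001 with a library left out.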

Other observations

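Of the 4 genes that ran most opposite to RCAN2 over the 16 libraries, POLA1, PRPS2 and EIF2S3 lie on chromosome X in the RefSeq annotation, which held 397 of the 12590 tested genes with a chromosome (3.15%). This count was noticed after the genes were seen and was not tested. EIF2S3 measured 205 ± 23.4 and 175 ± 6.65 FPKM in ancestral cells on stiff and soft ECM, and 146 ± 3.71 and 126 ± 7.71 FPKM in stiff-selected and soft-selected cells. POLA1 measured 21.5 ± 1.34, 18.2 ± 0.601, 15.3 ± 0.922 and 13.9 ± 0.603 FPKM in the same order.

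The ratio of RCAN2 to RCAN1, both per length, was 0.50 ± 0.184 and 1.11 ± 0.237 in ancestral cells on stiff and soft ECM, and 2.39 ± 0.617 and 8.07 ± 2.32 in stiff-selected and soft-selected cells (mean ± SD, n = 4). Soft-selected replicate 4 had the lowest ratio of its group, 4.82, with the highest RCAN1 and the lowest RCAN2 of the 4 libraries. In stiff-selected cells replicate 3 had the lowest ratio, 1.60, with the highest RCAN1 and the lowest RCAN2 of its group. In ancestral cells replicate 3 had the lowest ratio, 0.952 on soft and 0.313 on stiff ECM, with the lowest RCAN2 but not the highest RCAN1. The ratio contains RCAN2, whose values chose the set, and is given as a description.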
